A study of Mus musculus with 2 samples.

Results

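The miR-30 family is a set of microRNAs (miRNAs) in mice that descend from a common ancestor and are encoded by 6 genes, Mir30a, Mir30b, Mir30c-1, Mir30c-2, Mir30d and Mir30e. Their counts were taken by gene symbol from the miRNA gene tables of adrenal glands, in which they were 6 of 2202 genes. The glands came from male B6CASTF1/J mice aged 4 days, a cross of C57BL/6J with the wild-derived CAST/EiJ. The labels name no treatment. The series held 1 group, with 2 libraries made from total RNA and a size range under 30 nucleotides. Replicate 1 came from male 3 and replicate 2 from male 4. Both carried the same donor label, so their standing as separate animals rests on the numbers of the males. No second condition was measured, and p-values below compare these 2 libraries only.

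A miRNA is cut from a hairpin precursor, whose arms give the 5p and 3p mature forms. A mature form guides the silencing complex to messenger RNAs, mainly through its seed, which is bases 2 to 8 from the 5′ end. The 5p forms of the miR-30 genes share a seed and so are thought to reach overlapping targets. The family is known from kidney podocytes, heart and bone, and as a brake on epithelial to mesenchymal change. The adrenal gland holds a steroid-making cortex and a catecholamine-making medulla, and whole-gland counts do not say which of them made a miRNA.

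RefSeq sequences on GRCm38.p6, the assembly behind mm10, were matched to 4 of the 6 genes, namely Mir30a, Mir30c-1, Mir30c-2 and Mir30e. Mir30b and Mir30d are named without sequence. The 5p forms are shown first because they carry the family's seed, which stands in capitals.
miR-30a-5p: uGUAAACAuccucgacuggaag
miR-30e-5p: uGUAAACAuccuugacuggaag
miR-30c-5p: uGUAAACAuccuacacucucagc
miR-384-5p: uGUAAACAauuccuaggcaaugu
Of 1679 mature names in the table, these 4 have the seed GUAAACA. The last of them, made by Mir384 on chromosome X, has the seed but departs from the others right after it. Counted from 1 at the 5′ end, miR-30a-5p and miR-30e-5p differ by the single substitution C13U. Both differ from miR-30c-5p at 5 of the 22 bases compared. The first 12 bases are the same in the 3 miR-30 forms, so a 5p read must reach base 13 to be given to 1 of these forms.

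The 3p forms are shown because they split the family into different seeds, again in capitals.
miR-30a-3p: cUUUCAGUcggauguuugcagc
miR-30e-3p: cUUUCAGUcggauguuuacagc
miR-30c-1-3p: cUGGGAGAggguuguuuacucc
miR-30c-2-3p: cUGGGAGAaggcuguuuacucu
The forms of Mir30a and Mir30e share the seed UUUCAGU and differ by G18A alone. The forms of both miR-30c genes share the seed UGGGAGA and differ at 3 bases. A count in the deposited tables belongs to a whole precursor gene. How much of a count came from the 5p and how much from the 3p arm was therefore not told apart.

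Among the 4 genes with a sequence, the miR-30c genes have the same 5p form at both loci. Among the 1005 hairpins of the table, miR-30a-5p and miR-30e-5p each occur in 1 and miR-30c-5p in 2. The hairpins are shown with their mature forms in capitals.
Mir30c-1: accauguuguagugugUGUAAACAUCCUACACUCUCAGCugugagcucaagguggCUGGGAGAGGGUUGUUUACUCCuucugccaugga
Mir30c-2: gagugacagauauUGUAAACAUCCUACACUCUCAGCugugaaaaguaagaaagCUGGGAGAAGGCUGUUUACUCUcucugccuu
The longest run they have in common covers 28 bases, which is the whole 5p form and 5 bases after it.
shared run: UGUAAACAUCCUACACUCUCAGCuguga
A read within this run aligns equally well to either gene. The tables put multi-mapping reads in a summary row and in no gene, so any such read counted as multi-mapping is not in the levels of Mir30c-1 and Mir30c-2 below. That row held 3176275 reads in replicate 1 and 1684373 reads in replicate 2, and its make-up by sequence was not analysed here.

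The genes lie in 3 clusters of 2. Neighbouring miRNA genes can be cut from a common transcript, which these data do not measure. Coordinates are on mm10 and counted from 1, with the GENCODE M21 annotation. Mir30e (ENSMUSG00000065409.1) lies at chromosome 4, 120772606 to 120772697, minus strand. Mir30c-1 (ENSMUSG00000065490.1) lies at chromosome 4, 120769534 to 120769622, on the same strand and 2983 bases away. Both are in an intron of Nfyc, which encodes a subunit of the CCAAT-binding factor NF-Y. Mir30d (ENSMUSG00000065437.1) lies at chromosome 15, 68341208 to 68341289, minus strand, and overlaps an exon of the noncoding gene Gm20732. Mir30b (ENSMUSG00000065476.2) lies 3697 bases from it, at 68337415 to 68337510, and overlaps an exon of the noncoding gene Gm26621. Mir30a (ENSMUSG00000065405.3) lies between annotated genes at chromosome 1, 23272269 to 23272339, plus strand. Mir30c-2 (ENSMUSG00000065567.1) lies 19361 bases from it, at 23291701 to 23291784, and overlaps an exon of the noncoding gene Gm27028.

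The family was counted in both adrenal libraries, with all 6 genes at 10 counts or more in each. Levels are given in CPM, that is, per 1000000 counts on the sense strand of miRNA genes in that library. The family summed to 103969 counts in replicate 1, or 2.62% of miRNA counts (exact 95% interval 2.61 to 2.64%). In replicate 2 it summed to 36912 counts, or 2.19% (2.17 to 2.21%). The mean was 2.41% ± 0.308 (SD, n = 2). These intervals cover counting error only, since sequencing reads are not independent molecules. The multi-locus families miR-26, miR-29 and miR-181 stood at 3.39% ± 1.24, 0.134% ± 0.00564 and 0.369% ± 0.0542 (SD, n = 2 each). Nearly all miR-26 counts fell on Mir26b, at 42626 CPM in replicate 1 and 24792 CPM in replicate 2. Mir26a-1 had 24.7 and 199 CPM and Mir26a-2 had 47.0 and 111 CPM, in the same order. Multi-mapping reads are in no gene, so these sums may leave out reads to unlike degrees and do not rank amounts of mature miRNA.

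The counts of the family came almost wholly from 3 genes, 1 in each cluster. Mir30d, Mir30e and Mir30a made up 98.3% of miR-30 counts in replicate 1 and 98.5% in replicate 2. Mir30d had 9040 CPM in replicate 1 and 9026 CPM in replicate 2. Mir30e had 9600 CPM in replicate 1 and 6484 CPM in replicate 2. Mir30a had 7166 CPM in replicate 1 and 6034 CPM in replicate 2. The ranges of Mir30d and Mir30e over the libraries overlapped, as did those of Mir30e and Mir30a. Within each library, however, Mir30a had the lowest CPM of these 3, and only the order of Mir30d and Mir30e was not fixed. In replicate 1 the highest was Mir30e and in replicate 2 it was Mir30d.

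**Figure D1:**
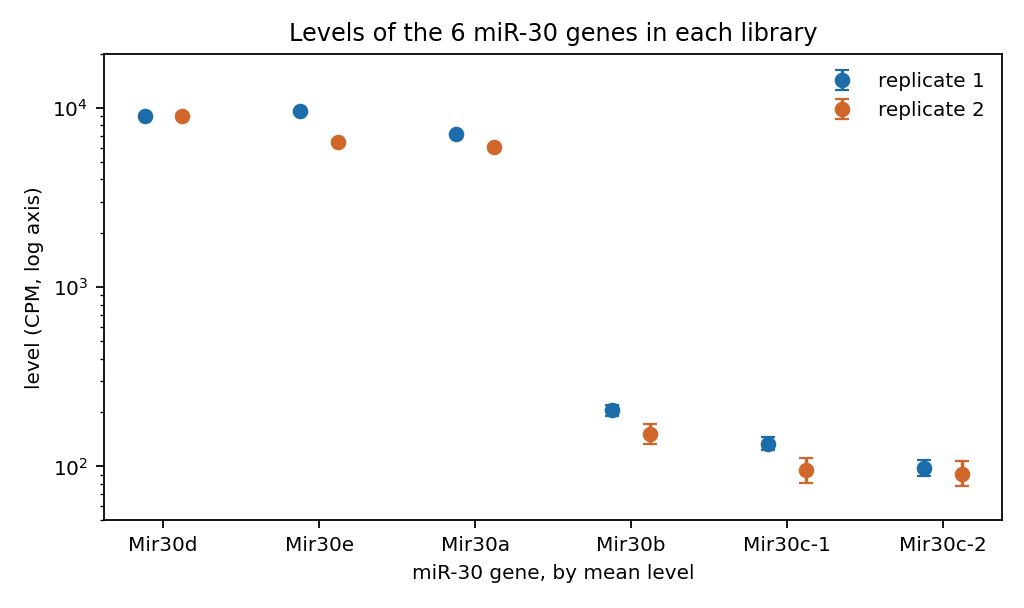
Level of each miR-30 gene in CPM on a log axis, for replicate 1 and replicate 2, with exact 95% intervals of counting error as bars (n = 2 libraries). Mir30d, Mir30e and Mir30a lie between 6034 and 9600 CPM, and Mir30b, Mir30c-1 and Mir30c-2 between 91.3 and 205 CPM.

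The other 3 genes were far lower. Mir30b had 205 CPM in replicate 1 and 152 CPM in replicate 2, from 814 and 256 counts. Mir30c-1 had 134 CPM in replicate 1 and 95.4 CPM in replicate 2, from 531 and 161 counts. Mir30c-2 had 97.9 CPM in replicate 1 and 91.3 CPM in replicate 2, from 388 and 154 counts. Mir30a, the lowest of the upper 3, lay 37.0-fold above Mir30b by mean CPM, and their ranges did not overlap. Mir30b lay above Mir30c-1 without overlap. The ranges of both miR-30c genes overlapped, although Mir30c-1 had the higher CPM within each library. With 2 unpaired values against 2, an exact two-sided permutation test cannot give a p below 0.333, so no such test was run. The genes were measured in the same 2 libraries, and a paired test has still fewer arrangements. A read covers a mature form rather than a whole precursor, so CPM was not divided by length. Per base of precursor, and scaled again to the same total, Mir30d had 8878, Mir30a 7494 and Mir30e 7049 on average. On that scale Mir30b had 150.0, Mir30c-1 104 and Mir30c-2 90.8, so the gap between the 3 upper and 3 lower genes remained and Mir30a and Mir30e changed places.

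**Figure D2:**
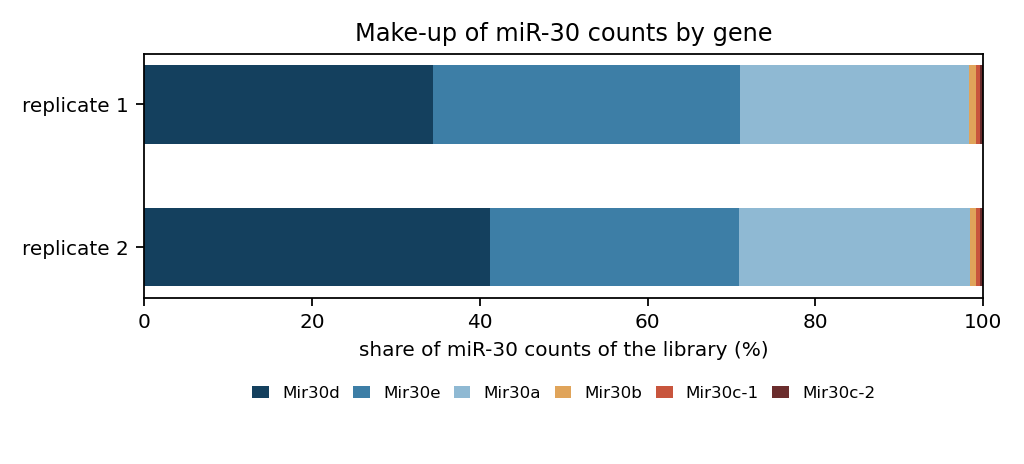
Share of the miR-30 counts of each library that each gene held, in percent, with 1 bar for replicate 1 and 1 for replicate 2. Mir30d held 34.4% in replicate 1 and 41.2% in replicate 2, Mir30e held 36.6% and 29.6%, and Mir30a held 27.3% and 27.6%.

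Within the family's counts, Mir30a kept its share, while that of Mir30d was higher and that of Mir30e lower in replicate 2. Shares of 1 total must move against each other and are not levels. In CPM, Mir30d was at 9040 in replicate 1 and 9026 in replicate 2, while both Mir30e and Mir30a were lower in replicate 2. Mir30a held 27.3% of miR-30 counts in replicate 1 (exact 95% interval 27.0 to 27.6%) and 27.6% in replicate 2 (27.1 to 28.0%). Mir30d held 34.4% in replicate 1 (34.2 to 34.7%) and 41.2% in replicate 2 (40.7 to 41.8%). Mir30e held 36.6% in replicate 1 (36.3 to 36.9%) and 29.6% in replicate 2 (29.2 to 30.1%). The intervals of Mir30a overlapped, and those of Mir30d and of Mir30e did not.

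Each cluster had an abundant and a minor gene. Mir30b made up 2.22% of the counts of Mir30d and Mir30b in replicate 1 (exact 95% interval 2.07 to 2.38%) and 1.65% in replicate 2 (1.46 to 1.87%). Mir30c-1 made up 1.38% of the counts of Mir30e and Mir30c-1 in replicate 1 (1.26 to 1.498%) and 1.45% in replicate 2 (1.24 to 1.69%). Mir30c-2 made up 1.35% of the counts of Mir30a and Mir30c-2 in replicate 1 (1.22 to 1.49%) and 1.49% in replicate 2 (1.27 to 1.74%). The minor share of the last 2 clusters thus differed by less than counting error between the libraries, while that of Mir30b was lower in replicate 2. Both minor genes of those clusters are the miR-30c loci, which share their 5p form, so these shares may leave out 5p reads and are not ratios of mature miRNA. By mean CPM, Mir30d stood 50.6-fold above Mir30b, Mir30e 70.1-fold above Mir30c-1 and Mir30a 69.8-fold above Mir30c-2. Among 458 tested miRNA gene pairs within 10 kb on 1 strand, the median ratio of the higher to the lower mean was 5.79, and 61 pairs were as unequal as Mir30a and Mir30c-2 or more. Mir30a and Mir30c-2 themselves lie farther apart than that and are not among the 458. Many of these pairs share a gene.

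**Figure D3:**
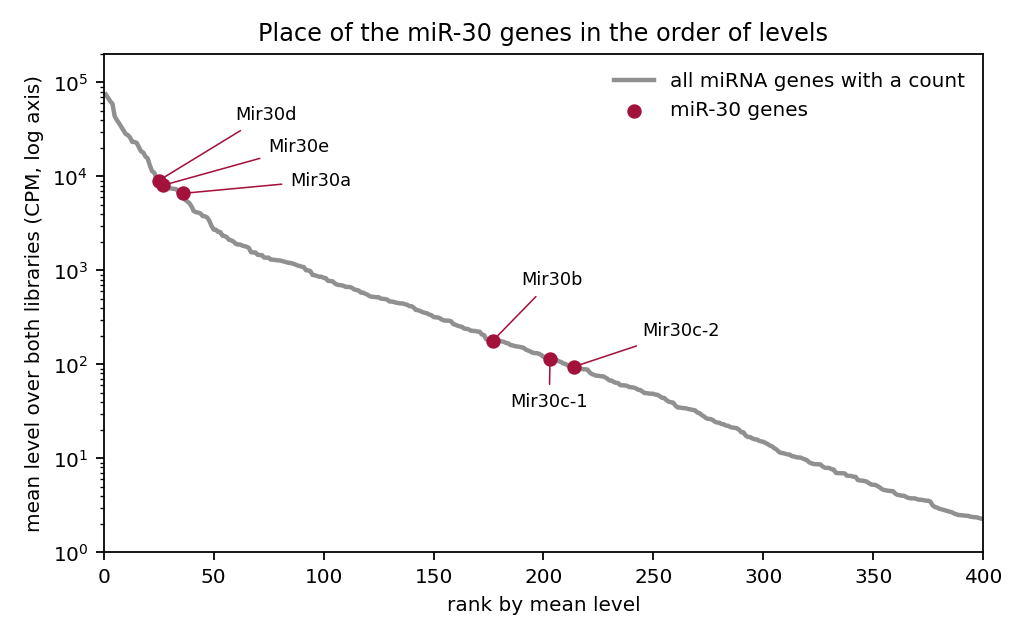
Mean level over both libraries in CPM, on a log axis, against rank, for miRNA genes up to rank 400, with the miR-30 genes marked. Mir30d, Mir30e and Mir30a stand at ranks 25, 27 and 36, and Mir30b, Mir30c-1 and Mir30c-2 at ranks 177, 203 and 214.

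In the order of all 2202 miRNA genes by mean CPM, Mir30d ranked 25, Mir30e 27 and Mir30a 36. Mir30b ranked 177, Mir30c-1 203 and Mir30c-2 214, all within the 340 genes with at least 10 counts in both libraries. The genes next to Mir30d in mean level over the 2 libraries were Mir130a above, at 9600 ± 5143 CPM, and Mir652 below, at 8284 ± 1707 CPM (SD, n = 2). Those next to Mir30e were Mir652 and Mir99b, at 7912 ± 4840 CPM. Those next to Mir30a were Mir98 of the let-7 family, at 6664 ± 2118 CPM, and Mir125a, at 5654 ± 1320 CPM. Around the minor genes stood Mirlet7f-1 and Mir339 for Mir30b, Mir294 and Mir218-2 for Mir30c-1, and Mir222 and Mir155 for Mir30c-2. Every one of these neighbours overlapped its miR-30 gene in range over the 2 libraries, so none of these ranks is firm. Likeness here means closeness of mean level only. The ranking did not use the log2 ratio between the libraries. In that ratio, Mir30d stood at 0.00 and its neighbours Mir130a and Mir652 at 1.15 and 0.42. Mir30a stood at 0.25 (Mir98 -0.66, Mir125a -0.48) and Mir30c-2 at 0.10 (Mir222 -1.70, Mir155 0.76). Mir30e, at 0.57, lay between Mir652 and Mir99b at 1.34. In size, Mir30b at 0.44 lay between Mir339 at -0.17 and Mirlet7f-1 at -0.77. Mir30c-1, at 0.49, was above both Mir294 at 0.34 and Mir218-2 at 0.12.

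No miR-30 gene was called different between the libraries, where 18.3% of the 404 tested miRNA genes were called. The call needed a Benjamini-Hochberg adjusted p under 0.05 in a two-sided exact binomial test and a fold over 2 on CPM + 0.5. At an unadjusted p under 0.05, 4 of the 6 genes differed, and the same number passed after adjustment at any size of fold. All 4 were higher in replicate 1. At any size 62.1% of all tested genes passed and 32.4% passed as higher in replicate 1, so counting error alone is a low bar at these depths. Mir30e had 38033 counts in replicate 1 and 10937 counts in replicate 2. Its level was higher in replicate 1 by a factor of 1.48 (exact 95% interval 1.45 to 1.51, adjusted p = 1.65e-305 in the exact test). Mir30a was 1.19-fold higher in replicate 1 (1.16 to 1.22, adjusted p = 1.10e-50 in the exact test). Mir30b was 1.35-fold higher in replicate 1 (1.18 to 1.56, adjusted p = 3.62e-05 in the exact test), and Mir30c-1 was 1.40-fold higher (1.18 to 1.69, adjusted p = 0.000267 in the exact test).

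Mir30d and Mir30c-2 did not pass. Mir30d had 35812 counts in replicate 1 and 15226 counts in replicate 2, a ratio of 1.00 (exact 95% interval 0.983 to 1.02, adjusted p = 0.924 in the exact test). Mir30c-2 had a ratio of 1.07 (0.888 to 1.30, adjusted p = 0.569 in the exact test). All 6 log2 ratios of replicate 1 over replicate 2 were above 0, as were 54.2% of those of all tested genes. That of Mir30d, 0.00, became -0.010 in the either-strand column. The median log2 ratio was 0.34 over the 6 genes and 0.05 over all tested genes, and the median size was 0.34 over the 6 genes and 0.50 over all. Of the 92 genes with a mean of at least 1000 CPM, none had a log2 ratio smaller in size than that of Mir30d. By the same measure, 28 had one smaller than Mir30a and 58 smaller than Mir30e. These counts of genes hold for scaling by library totals only and were not made under other scaling. TMM scaling, which trims extreme genes before it sets library sizes, moved log2 ratios by 0.11. Mir30d then stood at 0.11 with an adjusted p of 1.22e-14 in the exact test. Whether it passed at any size of fold thus depended on the scaling, while it stayed below the fold over 2 needed for a call.

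**Figure D4:**
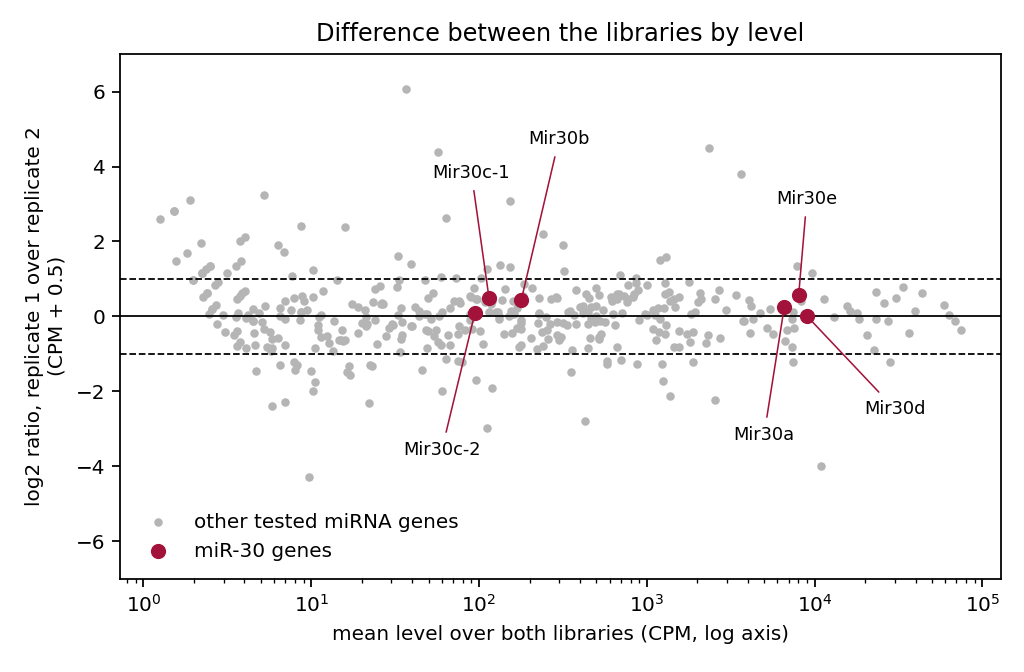
Log2 ratio of replicate 1 over replicate 2, on CPM + 0.5, against mean level in CPM on a log axis, for 404 tested miRNA genes, with the miR-30 genes in red and dashed lines at a fold of 2. All 6 miR-30 genes lie between the dashed lines, from 0.00 for Mir30d to 0.57 for Mir30e.

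The 2 genes of a cluster were also compared in their log2 ratio between the libraries. The ratios differed by 0.08 between Mir30e and Mir30c-1, by 0.15 between Mir30a and Mir30c-2 and by 0.43 between Mir30d and Mir30b. Over the 458 neighbouring pairs the median difference was 0.48, and 35 pairs had a smaller one than Mir30e and Mir30c-1, 74 a smaller one than Mir30a and Mir30c-2, and 206 a smaller one than Mir30d and Mir30b. The 458 pairs were not matched to the miR-30 genes in counts, and log2 ratios of genes with few counts vary more by counting error. These values describe 2 libraries and have no test.

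Markers of other cell types differed between the libraries. The list for red blood cells, with 2 of 2 genes detected, summed to 7235 CPM in replicate 1 and 576 CPM in replicate 2. The liver marker Mir122 stood at 1299 CPM in replicate 1 and 20602 CPM in replicate 2. Of 5 epithelial markers all were detected, and they summed to 741 CPM in replicate 1 and 279 CPM in replicate 2. Of 5 kidney markers 3 were detected, and all 5 summed to 241 CPM in replicate 1 and 379 CPM in replicate 2. The kidney list split both ways. Mir192 stood at 49.7 CPM in replicate 1 and 190 CPM in replicate 2, and Mir194-2 at 24.0 and 96.0 CPM in the same order. Mir215 stood at 72.4 CPM in replicate 1 and 0.593 CPM in replicate 2, and Mir194-1 at 9.84 and 0.593 CPM. Mir204 was at 85.1 CPM in replicate 1 and 91.3 CPM in replicate 2. Of 5 striated muscle markers only Mir206 was detected, at 1130 and 2646 CPM, and Mir133a-2 was at 0 in both. Detected here means 10 counts or more in each library. Multi-mapping reads are in no gene, so low counts at like-named loci, such as Mir1a-1 and Mir1a-2, do not show that the miRNA was absent. Endothelial Mir126a stood at 65222 CPM in replicate 1 and 83391 CPM in replicate 2, and the smooth muscle and stroma list at 42282 and 38444 CPM in the same order. Neuroendocrine markers of the medulla, with 4 of 4 detected, summed to 36299 CPM in replicate 1 and 46670 CPM in replicate 2. Most of this was Mir375, at 31129 CPM in replicate 1 and 42377 CPM in replicate 2. Mir7b had 4570 CPM in replicate 1 and 3754 CPM in replicate 2, Mir7-2 had 138 and 67.0 CPM, and Mir7-1 had 462 and 472 CPM, in the same order. The part of these cells in the miR-30 levels was not tested. In whole glands, fewer cells of a type and less miRNA per cell cannot be told apart.

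A pair of relatives outside the 6 genes were also annotated. Mir384, whose 5p form has the miR-30 seed, had 83 counts in replicate 1 and 36 counts in replicate 2. These gave 20.95 CPM in replicate 1 and 21.3 CPM in replicate 2, below every miR-30 gene in both libraries (ratio 0.982, exact 95% interval 0.656 to 1.49). Mir30f is annotated at the exact position of Mir30e on the opposite strand of chromosome 4. Its listed mature form is shown with bases 2 to 8 in capitals, because they are the family's shared bases shifted by 1 position.
miR-30f: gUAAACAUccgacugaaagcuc
Mir30f had 0 sense-strand counts in each library, which allows up to 0.757 CPM in replicate 1 and 1.78 CPM in replicate 2. The either-strand column listed both Mir30e and Mir30f at 0. Its summary row for ambiguous reads, those that fit more than 1 gene, held 477897 reads in replicate 1 and 215964 reads in replicate 2. The opposite-strand column listed 38033 counts in replicate 1 and 10937 counts in replicate 2 under Mir30f, which are the same numbers as the sense-strand counts of Mir30e. The opposite strand of each of the 6 genes was at 0 in both libraries.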

How the data were processed

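The authors deposited 1 table of read counts per library, as whole-number counts per miRNA gene with 3 count columns and 4 summary rows. Per the deposited file lists, the build was mm10 with annotation release M21. The aligner, trimming and read filters are not given in the sources used here. Identifiers were matched to symbols in GENCODE M21, and all 2202 matched. The deposited file lists name no column. From the values, the first was taken to hold reads of either strand and the others 1 strand each, of which the one with more counts is called the sense strand and was used. All values by strand rest on this reading. Summary rows were left out of totals.

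Replicate 1 had 3961630 sense-strand miRNA counts of 11770895 reads, and replicate 2 had 1686822 of 6557080. Unaligned, multi-mapping and other reads made up 66.3% of replicate 1 and 74.3% of replicate 2, so low genes are less precise in replicate 2.

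Levels are CPM. Genes reaching 10 counts in 1 library or both were tested by a two-sided exact binomial test given the library totals, adjusted over all 404, and a log2 ratio on CPM + 0.5 above 1 or below -1 was required for a call. A count of 0 was taken to allow up to 3 counts. Intervals are exact Clopper-Pearson at 95%. Scaling alternatives used TMM of edgeR 4.0.16 and size factors of DESeq2 1.42.0 in R 4.3.3. Tests ran in Python 3.11.15 with scipy 1.17.1, after a trial on simulated data. Named genes were the 6 members, relatives by name or seed, the genes next to each member in mean CPM, and marker lists. The members and lists were chosen with earlier results of these data known.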

Additional observations from a re-analysis of the deposited data

How the results depend on the processing

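Depth limited the 3 minor genes most, and p-values reflect counting error between 2 libraries, not animals. The mean family share of 2.41% became 1.83% in the either-strand column, where Mir30e is at 0, 0.723% with all reads as the total and 1.12% with aligned reads. Leaving out either library gave 2.19 to 2.62%, which 2 values cannot exceed. TMM scaling, DESeq2 size factors, a minimum of 10 counts in both libraries and omission of the miR-30c loci left the mean share between 2.39 and 2.42%. The miR-30c loci held a mean of only 0.0209% of miRNA counts, so their omission could hardly move the share. It says nothing on miR-30c reads that were left out as multi-mapping. Genes called different numbered 132 at a log2 ratio over 0.58 and 251 at any size, against 74, and the miR-30 genes among them numbered 0 and 4. Under the other alternatives run (filters, scaling, either-strand column), 57 to 79 genes and no miR-30 gene were called. In the either-strand column only 5 miR-30 genes were tested, because Mir30e is at 0 there. The log2 ratio of Mir30d was reversed, to -0.010, in the either-strand column, whose total differs. Per base of precursor, Mir30c-2 made up 1.20% of its cluster, against 1.42%. Leaving out either library gave minor shares of 1.65 to 2.22% for Mir30b, 1.38 to 1.45% for Mir30c-1 and 1.35 to 1.49% for Mir30c-2. The number of miR-30 genes at 1000 CPM or more was 3, and 2 in the either-strand column. Neighbouring gene pairs within 20 kb, a distance chosen after seeing the data, had a median difference of 0.55. No pairing of samples between conditions was possible because there was 1 group. Without Mir30e in the either-strand column, no share could be computed for its cluster.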
